A study of Mus musculus with 4 samples.

Results

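Senescence and p53 response genes were followed in single cells of injured mouse muscle. The 9 genes were taken by symbol from the 32285 genes of the deposited matrices: *Cdkn1a*, *Mdm2*, *Ccng1*, *Trp53inp1*, *Gdf15*, *Cdkn2a*, *Cdkn2b*, *Lmnb1* and *Glb1*. The rows were taken by symbol and not by a measured value, but the genes were chosen with earlier results of these data known. p53 is a transcription factor that is held low by Mdm2 and accumulates after DNA damage and other stress, when it activates genes of cell cycle arrest, apoptosis and metabolism. Senescence is a lasting withdrawal from the cell cycle that is enforced by the p53 to p21 route and by the INK4 inhibitors acting on the RB protein, and it is often recognised by loss of lamin B1 and by high lysosomal beta-galactosidase. Damaged skeletal muscle is known to hold senescent cells for a time, while differentiating myoblasts and cartilage cells also use p21 when they leave the cell cycle.

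Tibial muscle came from C57BL/6 mice aged 6 to 8 weeks that carry the *Nse-Bmp4* transgene, in which the neuron-specific enolase promoter drives *Bmp4* and muscle injury leads to heterotopic bone. The 4 groups were Uninjured muscle and muscle at 1, 3 and 7 days after cardiotoxin injury (dpi). Each group was a single 10x Genomics library made from 3 pooled muscles, so the mice within a group cannot be separated and time and library cannot be told apart. All groups carried the transgene, and no group without it was analysed here.

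Each library held between 11722 and 23752 cells and between 91146335 and 129007669 unique molecular identifiers (UMIs), and the median per cell was lower at each later time, from 8629 UMIs in Uninjured muscle to 3083 at 7 dpi. After quality filters 9641 to 20301 cells per library remained. Pairs of libraries shared 30 to 95 cell barcodes. Cells were placed in 15 classes by counting how many of 6 marker genes per class were detected, and 1.85% to 7.54% of cells per library stayed without a class. Mesenchymal stromal cells (MSC lineage cells) were the largest class, with 8482, 3957, 6887 and 12278 cells in the order Uninjured, 1, 3 and 7 dpi, which is the order of every series of 4 values below. The MSC markers summed to between 21439 and 35469 counts per 1000000 UMIs (CPM) in this class. At 7 dpi they also reached 24039 CPM in the chondrocyte-like cells, so the boundary between these classes depends on the gate. The chondrocyte-like class of 4789 cells was absent before 7 dpi. All but 35 of its cells had at least 4 of 6 cartilage markers.

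CPM values pool the cells of 1 class in 1 library and divide the UMIs of a gene by all UMIs of that pool, and they are given with an exact Poisson 95% interval. A ratio is called past 2-fold when it is at least 2 or at most 0.5 and the gene has at least 20 UMIs over both libraries. With 1 library per time no test between times was possible, no p-value is given, and all intervals cover counting error only. Levels are compared between cells for the same gene, never between genes.

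The promoters of the genes with p53 motifs and of the paired INK4 genes are shown as a description, and no level below was computed from them. RefSeq on build GRCm38.p6 gave 10 promoter windows for 7 of the 9 genes, each from 250 bases before to 50 bases after a transcript start. *Trp53inp1* had no entry and *Lmnb1* is not printed. Capitals mark matches to the p53 half-site decamer on either strand. The first *Cdkn1a* window (chr17:29090729-29091028, plus strand) held 2 decamers, 73 and 51 bases before the start, as well as 1 20-base site of 2 adjoining decamers with at most 2 mismatches. The *Mdm2* window (chr10:117710709-117711008, minus strand) and the *Ccng1* window (chr11:40755237-40755536, minus strand) each held 1 decamer, 186 and 185 bases before the start.

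Cdkn1a: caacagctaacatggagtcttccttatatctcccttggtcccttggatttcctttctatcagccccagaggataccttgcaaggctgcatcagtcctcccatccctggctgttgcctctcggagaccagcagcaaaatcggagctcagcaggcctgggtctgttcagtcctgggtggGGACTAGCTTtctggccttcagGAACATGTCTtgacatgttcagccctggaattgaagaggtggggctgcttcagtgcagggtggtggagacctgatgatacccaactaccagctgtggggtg
Mdm2: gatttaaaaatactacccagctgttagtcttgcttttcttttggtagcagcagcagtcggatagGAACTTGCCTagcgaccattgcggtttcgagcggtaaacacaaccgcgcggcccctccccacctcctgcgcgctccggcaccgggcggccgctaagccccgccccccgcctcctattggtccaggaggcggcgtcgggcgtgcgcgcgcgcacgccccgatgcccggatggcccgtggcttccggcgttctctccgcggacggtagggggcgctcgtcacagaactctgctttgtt
Ccng1: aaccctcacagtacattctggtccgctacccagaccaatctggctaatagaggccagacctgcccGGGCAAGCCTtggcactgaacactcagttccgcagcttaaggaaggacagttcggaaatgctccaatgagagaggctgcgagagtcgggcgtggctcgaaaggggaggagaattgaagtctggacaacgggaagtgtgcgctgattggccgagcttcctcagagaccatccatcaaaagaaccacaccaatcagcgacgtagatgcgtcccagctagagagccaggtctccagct

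Among all 32851 promoters of the table, 8.36% held a decamer and 0.158% held the 20-base site, so a lone decamer is frequent. The other 7 windows, which belong to *Cdkn1a* (a second start), *Cdkn2a*, *Cdkn2b*, *Gdf15* and *Glb1*, held none. None of the 10 windows held TGATGNAA on either strand, the core of an element bound by ATF4 in the amino acid response, against 3.97% of all promoters. These matches describe letters and not binding.

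*Cdkn2a* has 2 starts, which give the p19Arf transcript (chr4:89294570-89294869, minus strand) and the p16Ink4a transcript (chr4:89282143-89282442, minus strand) from different reading frames. *Cdkn2b* starts at chr4:89310983-89311282 on the same strand, and 11645 bases separate the annotated ends of both genes. These 3 windows are shown because both genes were past 2-fold higher at 7 dpi in the same cells.

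Cdkn2a first start: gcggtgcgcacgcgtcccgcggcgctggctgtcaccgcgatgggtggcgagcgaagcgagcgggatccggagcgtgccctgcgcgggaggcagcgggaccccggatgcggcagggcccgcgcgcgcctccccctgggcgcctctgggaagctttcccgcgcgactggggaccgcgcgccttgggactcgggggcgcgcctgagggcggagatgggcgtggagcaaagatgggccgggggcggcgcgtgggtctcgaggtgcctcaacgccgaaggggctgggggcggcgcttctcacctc
Cdkn2a second start: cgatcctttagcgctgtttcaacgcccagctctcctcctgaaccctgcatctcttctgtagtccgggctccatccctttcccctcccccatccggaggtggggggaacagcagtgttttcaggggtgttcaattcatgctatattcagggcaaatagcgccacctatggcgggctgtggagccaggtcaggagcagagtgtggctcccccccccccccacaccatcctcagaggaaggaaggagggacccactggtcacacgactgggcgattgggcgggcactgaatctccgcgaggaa
Cdkn2b: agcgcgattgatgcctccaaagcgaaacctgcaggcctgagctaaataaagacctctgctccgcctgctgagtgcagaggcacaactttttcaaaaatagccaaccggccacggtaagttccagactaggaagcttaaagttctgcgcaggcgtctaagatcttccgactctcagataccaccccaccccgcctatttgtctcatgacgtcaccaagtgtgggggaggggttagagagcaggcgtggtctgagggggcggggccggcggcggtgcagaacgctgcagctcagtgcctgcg

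In the annotation (GENCODE M21, GRCm38) *Cdkn1a* (ENSMUSG00000023067) lies at chr17:29090976-29100727, *Mdm2* (ENSMUSG00000020184) at chr10:117688875-117710758, *Cdkn2a* (ENSMUSG00000044303) at chr4:89274471-89294653 and *Cdkn2b* (ENSMUSG00000073802) at chr4:89306299-89311039. *Cdkn1a* overlaps an unnamed transcript on the opposite strand and *Glb1* overlaps *Tmppe* on its own strand, so reads in those overlaps are uncertain. A single deposited value per cell covers both *Cdkn2a* transcripts, and p16Ink4a and p19Arf cannot be separated here.

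*Cdkn1a*, which encodes the cyclin-dependent kinase inhibitor p21, had its highest MSC level at 1 dpi. Its levels in MSC lineage cells were 95.9, 294, 145 and 75.6 CPM, with intervals of 93.7 to 98.0, 288 to 299, 142 to 148 and 73.5 to 77.8 CPM. No intervals overlapped. At 1 dpi the level was 3.06 times that of Uninjured muscle (95% interval 2.97 to 3.15). The level then went to 0.493 of the 1 dpi value at 3 dpi (0.479 to 0.508) and to 0.522 of the 3 dpi value at 7 dpi (0.504 to 0.541), ending below the Uninjured level. The share of MSC lineage cells with a *Cdkn1a* UMI was 26.6%, 68.1%, 44.9% and 19.1%. With every cell thinned to 1000 UMIs the shares were 6.90%, 23.8%, 17.0% and 7.30%, and the ratios 3.36, 0.726 and 0.374, so that the step from 1 to 3 dpi stayed within 2-fold and the step from 3 to 7 dpi passed it. In B cells, a class with low levels of the gene, the thinned shares were 2.01%, 4.08%, 4.55% and 3.66%.

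The other p53 targets among the 9 genes stayed within 2-fold of Uninjured in MSC lineage cells at 1 dpi. *Mdm2*, the ubiquitin ligase that degrades p53 and is itself a p53 target, had levels of 26.0, 42.2, 33.0 and 28.1 CPM. The first-day ratio was 1.63 (1.52 to 1.74), and 2.02 in thinned cells. *Ccng1*, which encodes cyclin G1, a partner of the phosphatase that acts on Mdm2, had levels of 25.4, 40.6, 34.7 and 39.4 CPM and a ratio of 1.59 (1.49 to 1.71) on the first day.

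*Trp53inp1*, a nuclear cofactor of p53 that also acts in autophagy, followed another course. Its MSC levels were 13.2, 18.0, 11.0 and 21.9 CPM, highest at 7 dpi, and the ratio of 7 to 3 dpi was 1.98 (1.80 to 2.18), or 1.21 in thinned cells. *Gdf15*, a secreted stress cytokine that p53 and the integrated stress response induce, had MSC levels of 8.19, 7.13, 2.07 and 3.04 CPM. Its ratio of 3 to 1 dpi was 0.290 (0.232 to 0.361), the only member apart from *Cdkn1a* past 2-fold in that step. *Trp53*, the gene of p53 itself, stayed within 2-fold at each step, with 49.1, 59.8, 73.9 and 64.4 CPM.

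Counted over all 9 genes, 2 were past 2-fold higher from Uninjured to 1 dpi in MSC lineage cells, *Cdkn1a* and *Lmnb1*, and none lower. The background over all 15476 genes tested was 10.9% higher and 5.52% lower. From 1 to 3 dpi 2 were lower, *Cdkn1a* and *Gdf15*, against a background of 5.75% lower and 7.68% higher. From 3 to 7 dpi 2 were higher, *Cdkn2a* and *Cdkn2b*, against 10.9% higher and 7.84% lower. The median log2 ratio of the 9 genes was 0.45, -0.22 and 0.18 in these steps, beside 0.18, -0.06 and -0.07 for all genes tested. Relative to the shift of 0.18 on the first day, the log2 ratio of *Cdkn1a* was 1.44, that of *Lmnb1* 0.84, that of *Mdm2* 0.52 and that of *Ccng1* 0.50.

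**Figure D1:**
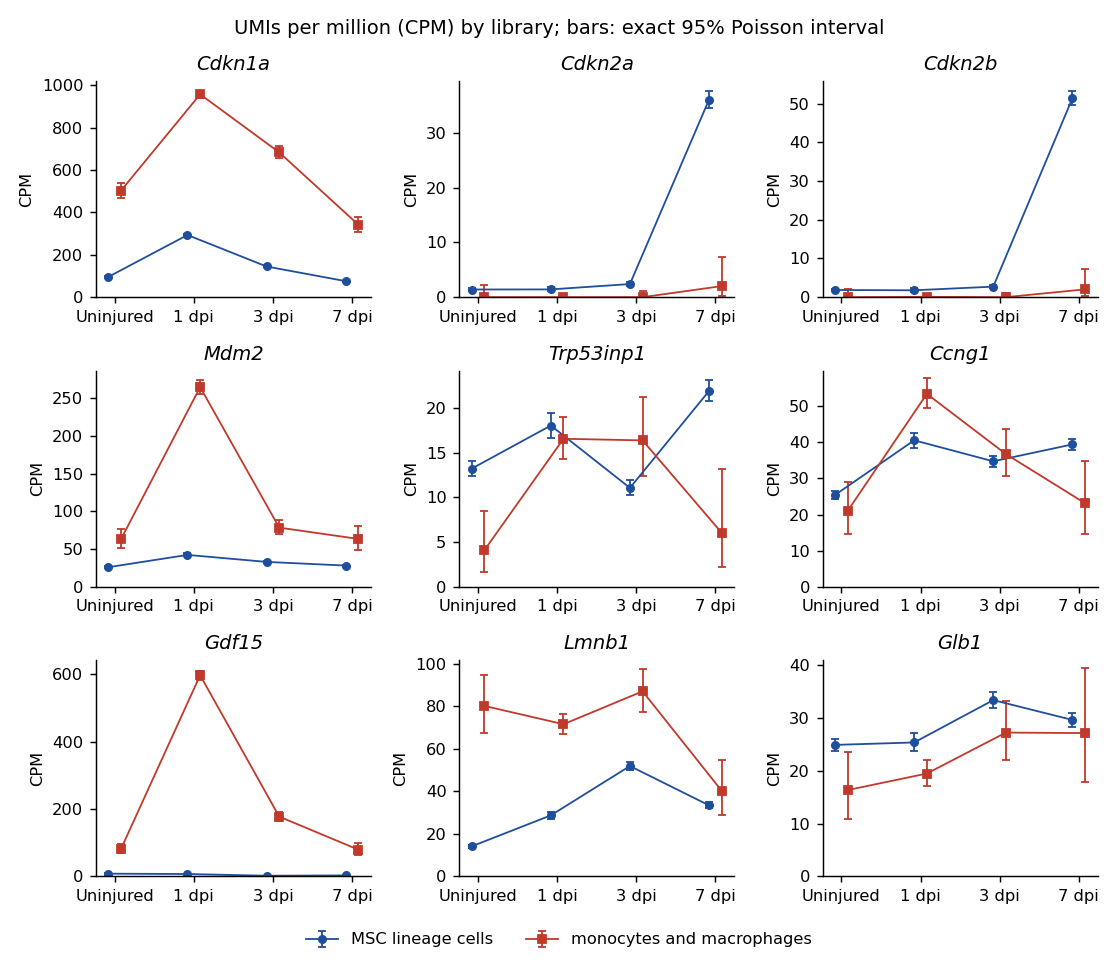
Each panel plots 1 gene as CPM on a linear axis against the 4 libraries, for MSC lineage cells (blue) and monocytes and macrophages (red), with exact 95% Poisson intervals as bars. *Cdkn1a* in MSC lineage cells peaks at 294 CPM at 1 dpi, whereas *Cdkn2a* and *Cdkn2b* stay under 3 CPM until 3 dpi and reach 36.0 and 51.4 CPM at 7 dpi.

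*Mdm2* and *Gdf15* were past 2-fold higher in monocytes and macrophages at 1 dpi. In monocytes and macrophages *Mdm2* levels were 63.2, 264, 78.4 and 63.4 CPM, and only the 1 dpi value stood apart. On the first day the ratio was 4.19 (3.46 to 5.12), and 6.96 in thinned cells. *Gdf15* levels in these cells were 81.9, 597, 177 and 79.5 CPM, with a first-day ratio of 7.29 (6.17 to 8.68) and of 10.7 in thinned cells. *Mdm2* and *Gdf15* then went to 0.296 and 0.297 of their 1 dpi level at 3 dpi, the 2 of 7 tested genes past 2-fold lower in that step (background 4.66%). In the last step *Gdf15*, *Trp53inp1* and *Lmnb1* were lower (background 10.4%), and after thinning *Gdf15* alone.

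The other targets in monocytes and macrophages were higher at 1 dpi as well. *Ccng1* had 21.1, 53.4, 36.7 and 23.1 CPM, with a first-day ratio of 2.54 (1.81 to 3.66). In thinned cells the *Ccng1* ratio was 6.48, but it rests on 2 UMIs in the Uninjured library. *Trp53inp1* had 4.09, 16.5, 16.4 and 6.04 CPM, with a ratio of 4.04 (1.93 to 10.2) that rests on 7 UMIs in the Uninjured library. *Cdkn1a* was already abundant in Uninjured cells and had 503, 958, 684 and 342 CPM, a first-day ratio of 1.90 (1.78 to 2.04). Thus 4 of the 7 genes with enough UMIs were past 2-fold higher, against a background of 17.2% of genes higher and 5.70% lower, with a median log2 ratio of 1.34 beside 0.19 for all genes tested. The levels of *Trp53* in the same cells were 43.3, 36.1, 39.3 and 46.3 CPM.

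The monocyte and macrophage class numbered 217, 1542, 704 and 222 cells and its make-up differed between times. Cells with at least 2 of *C1qa*, *C1qb* and *C1qc*, complement genes of resident-type macrophages, were compared with cells that had none. In Uninjured muscle *Gdf15* was at 171 CPM in the C1q cells and at 12.0 CPM in those without, a ratio of 14.2 (7.62 to 29.3) against a background of 6.93% of genes past 2-fold higher. The 107 UMIs of the C1q cells lay in 9 of 70 cells, and the 11 UMIs of the others in 7 of 127. These shares, 12.9% (6.05% to 23.0%) and 5.51% (2.24% to 11.0%), had overlapping intervals. The interval of the ratio treats UMIs of 1 cell as independent. At 1 dpi the values were 717 and 470 CPM, a ratio of 1.53 with a background of 2.5%. At both C1q states the level at 1 dpi was above the Uninjured level. At 3 dpi the values were 147 and 231 CPM and at 7 dpi 150 and 42.3 CPM, a ratio of 3.56 with a background of 6.41%.

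Monocytes and macrophages with and without an *Mdm2* UMI were also compared at 1 dpi. In thinned cells with an *Mdm2* UMI, 60.2% had a *Cdkn1a* UMI (54.7% to 65.5%) and 32.9% a *Gdf15* UMI (27.9% to 38.3%). Among those without an *Mdm2* UMI the shares were 49.4% (46.5% to 52.2%) and 19.5% (17.3% to 21.8%). In MSC lineage cells at 1 dpi the share with a *Cdkn1a* UMI was 25.4% with *Mdm2* and 23.7% without, with overlapping intervals. A *Ccng1* UMI was less frequent in thinned MSC lineage cells with *Cdkn1a*, at 2.13% (1.31% to 3.27%), than in those without, at 3.99% (3.32% to 4.75%). Before thinning these shares were 27.4% and 25.1%, with overlapping intervals. *Gdf15* UMIs were found in 38.1% of monocytes and macrophages at 1 dpi and in 1.40% of B cells of the same library.

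**Figure D2:**
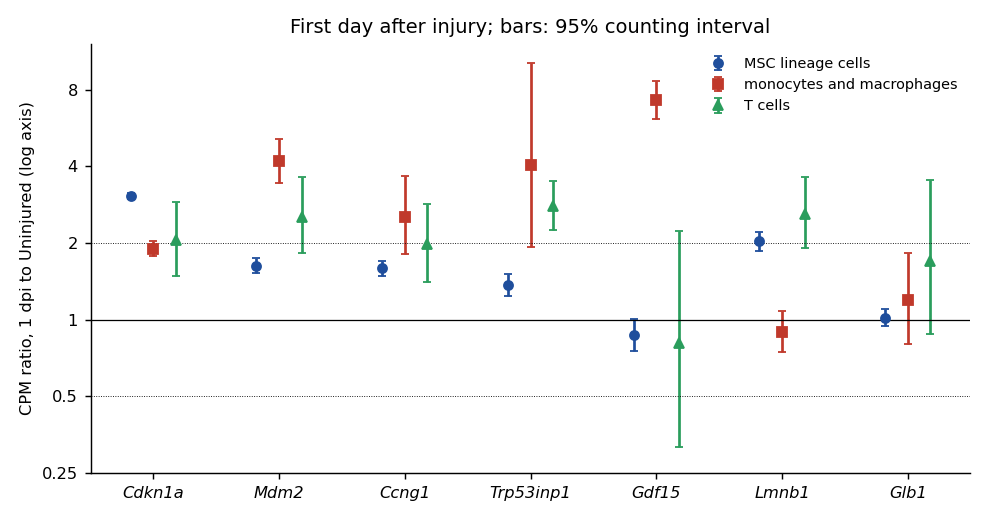
Points give the CPM ratio of 1 dpi to Uninjured on a log axis for 7 genes in MSC lineage cells, monocytes and macrophages and T cells, with 95% counting intervals as bars. *Gdf15* and *Mdm2* stand highest in monocytes and macrophages at 7.29 and 4.19, and *Cdkn1a* in MSC lineage cells at 3.06.

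In lymphocytes *Trp53inp1* was more abundant at 1 and 3 dpi. *Trp53inp1* levels in T cells were 63.8, 178, 155 and 57.3 CPM, with a first-day ratio of 2.80 (2.24 to 3.52). B cells had 81.4, 142, 242 and 78.4 CPM and NK cells 35.2, 96.1, 95.1 and 42.9 CPM. In each of these 3 classes the 1 and 3 dpi levels were above both the Uninjured and the 7 dpi level. At 1 dpi T cells held the highest *Trp53inp1* level of all classes and B cells the next, with intervals that did not overlap. Of 7 genes tested in T cells, 4 were past 2-fold higher on the first day: *Cdkn1a*, *Mdm2*, *Trp53inp1* and *Lmnb1*, against a background of 21.7% higher. The median of all genes tested in T cells was shifted by 0.45 on the log2 scale in that step. In T cells *Cdkn1a* and *Trp53inp1* were past 2-fold lower from 3 to 7 dpi (background 10.8%).

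Other immune classes were counted in the same way. On the first day 3 of 7 tested genes were higher in B cells (background 22.4%). There *Gdf15* and *Glb1* rest on 0 and 3 UMIs in Uninjured muscle and on 21 and 58 UMIs at 1 dpi. For each of these genes the CPM intervals of the libraries overlapped. In NK cells 3 of 6 were higher (19.2%). In neutrophils 3 of 7 were higher and 1 lower (34.8% and 3.84%), with *Cdkn1a* at 39.6, 133, 134 and 227 CPM and *Trp53inp1* at 19.8, 85.9, 65.9 and 38.8 CPM. B cells had 4 of 5 genes lower from 3 to 7 dpi (24.1%), with *Lmnb1* at 180 and 17.0 CPM.

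*Cdkn1a* was carried at very different levels by the classes, whatever the time. Schwann cells, the glia of peripheral nerve, had the highest level in every library, with 1487, 1411, 1532 and 883 CPM. Dendritic cells (527, 493, 610 and 395 CPM) and monocytes and macrophages had neighbouring levels in Uninjured muscle, with overlapping intervals. B cells had 22.1, 62.9, 95.7 and 23.9 CPM, the lowest level in Uninjured muscle and at 7 dpi. Endothelial cells went from 846 and 1017 CPM at 1 and 3 dpi to 120 CPM at 7 dpi, where the class held 74, 128 and 85 cells. In endothelial cells 2 of 6 tested genes were past 2-fold lower from 3 to 7 dpi and 1 higher, against 12.9% and 8.99% of all genes. T cells reached 141 CPM at 3 dpi, 2.22 times (1.86 to 2.65) their 1 dpi level of 63.4 CPM, in the step in which MSC lineage cells were past 2-fold lower. The background of T cells in this step was 3.15% of genes higher.

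**Figure D3:**
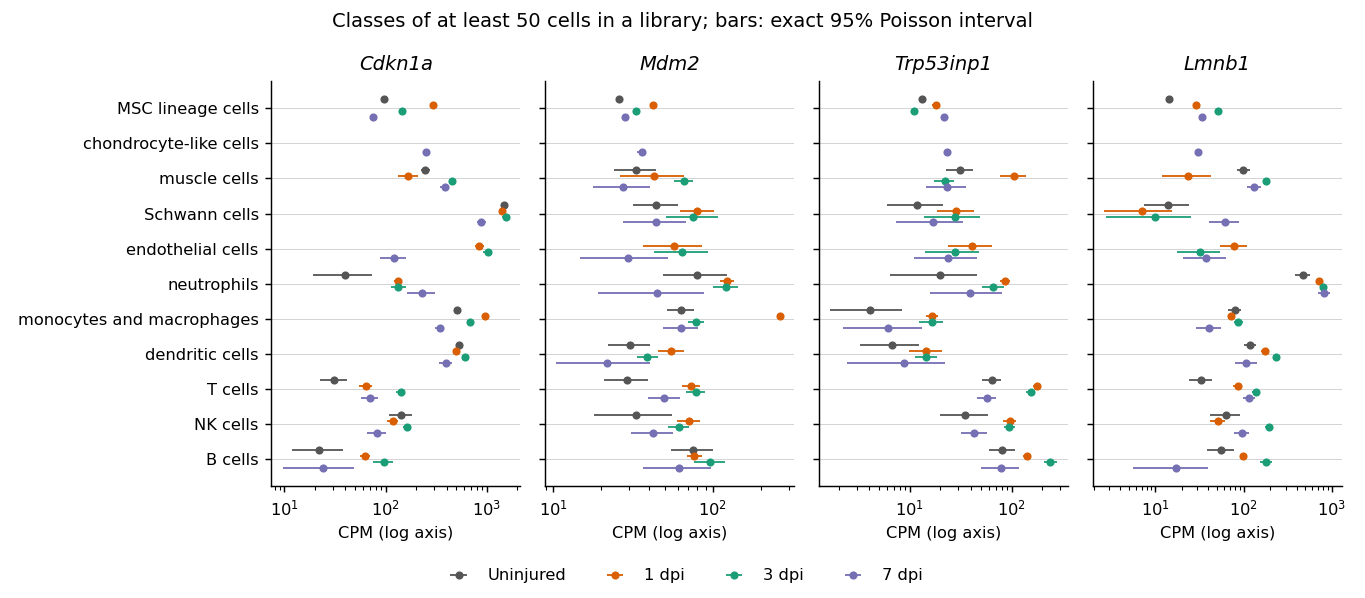
Levels of *Cdkn1a*, *Mdm2*, *Trp53inp1* and *Lmnb1* in CPM on a log axis are drawn for 11 classes where a library held at least 50 of their cells, with 1 colour per library and exact 95% Poisson intervals as bars. Schwann cells hold the highest *Cdkn1a* values, from 883 to 1532 CPM, in all 4 libraries.

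*Cdkn2a* and *Cdkn2b*, which encode inhibitors of the cyclin D kinases and, from *Cdkn2a*, the Mdm2 inhibitor p19Arf, were near absent in MSC lineage cells up to 3 dpi. *Cdkn2a* levels were 1.40, 1.41, 2.39 and 36.0 CPM, from 111, 51, 140 and 2217 UMIs. *Cdkn2b* levels were 1.85, 1.77, 2.72 and 51.4 CPM, from 147, 64, 159 and 3159 UMIs. The 7 dpi library stood apart for both. The ratios of 7 to 3 dpi were 15.1 (12.7 to 18.0) for *Cdkn2a* and 18.9 (16.1 to 22.3) for *Cdkn2b*, and 18.4 and 15.2 in thinned cells. Against Uninjured muscle the 7 dpi levels were 25.8 and 27.8 times as high.

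A *Cdkn2a* UMI was found in 0.625%, 0.682%, 1.76% and 10.1% of MSC lineage cells, and after thinning in 0.212%, 0.279%, 0.168% and 2.86% (2.56% to 3.19%). In monocytes and macrophages the *Cdkn2a* counts were 0, 0, 0 and 2 UMIs. The thinned share in these cells at 7 dpi was 0.455% of 220 cells (0.012% to 2.51%). Median depths at 7 dpi were 3894.5 UMIs in monocytes and macrophages and 2971 in MSC lineage cells. The thinned *Cdkn2b* shares in MSC lineage cells were 0.165%, 0.228%, 0.260% and 3.77%.

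At 7 dpi MSC lineage and chondrocyte-like cells shared the highest *Cdkn2a* level, 36.0 and 35.6 CPM, with overlapping intervals. For *Cdkn2b* the MSC lineage cells at 51.4 CPM (49.6 to 53.2) lay above the chondrocyte-like cells at 35.6 CPM (33.3 to 38.0). In thinned cells the levels were 39.6 and 34.5 CPM, and the shares, 3.77% (3.43% to 4.14%) and 3.32% (2.82% to 3.87%), had overlapping intervals. Pericytes and smooth muscle had 11.6 CPM of *Cdkn2a* and 10.2 CPM of *Cdkn2b* at that time. The share with *Cdkn2b* was then set against *Cdkn2a* cell by cell in MSC lineage cells at 7 dpi. In thinned cells 7.79% (5.10% to 11.3%) of those with a *Cdkn2a* UMI had a *Cdkn2b* UMI, and 3.66% (3.31% to 4.02%) of those without.

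The neighbours of the locus were read in the same cells. *Mtap*, a purine salvage enzyme gene beside *Cdkn2a*, had MSC levels of 18.9, 25.9, 38.1 and 43.1 CPM. *Dmrta1*, on the far side of *Cdkn2b*, had 10, 4, 4 and 2 UMIs, too few for a call. *Mtap* stayed within 2-fold from 3 to 7 dpi. These neighbours were chosen after the values of the pair were seen.

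In muscle cells *Cdkn2a* was highest at 3 dpi. The levels were 5.11, 4.29, 43.5 and 19.8 CPM, from 7, 2, 151 and 18 UMIs in 178, 88, 287 and 159 cells. The ratio of 3 to 1 dpi was 10.1 (2.76 to 84.5), wide because of 2 UMIs at 1 dpi, and that of 7 to 3 dpi was 0.455 (0.262 to 0.743). In thinned cells the 3 and 7 dpi levels were within 2-fold, at 38.5 and 32.1 CPM from 11 and 5 UMIs. The thinned shares, 3.85% (1.94% to 6.78%) and 3.21% (1.05% to 7.32%), had overlapping intervals. *Cdkn2b* in muscle cells had 2.92, 2.15, 11.0 and 4.40 CPM.

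Over all 9 genes, muscle cells had 1 higher (*Trp53inp1*) and 2 lower (*Ccng1* and *Lmnb1*) of 6 tested on the first day, against 16.1% and 15.8% of all genes. From 1 to 3 dpi 6 of 9 were higher and 1 lower, against 27.7% and 15.6%. In the last step 4 of 9 were lower, against 16.9%. After thinning *Ccng1* on the first day and *Mdm2* in the last step were above 1, at 1.35 and 1.15. The thinned *Ccng1* ratio rests on 3 UMIs in Uninjured muscle and 2 at 1 dpi. *Cdkn1a* in muscle cells was at 247, 167, 453 and 385 CPM, and *Trp53inp1* at 31.4, 105, 21.9 and 23.1 CPM. With 88 cells at 1 dpi, *Ccng1* and *Cdkn2a* there rest on 6 and 2 UMIs.

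*Lmnb1*, which encodes lamin B1 of the nuclear lamina and is known to be lost in senescent cells, was higher in MSC lineage cells after injury. Its levels were 14.1, 28.7, 51.9 and 33.4 CPM, and all 3 injured libraries lay above Uninjured. The first-day ratio was 2.03 (1.86 to 2.21), and 1.68 in thinned cells, and the ratio of 3 to 1 dpi was 1.81. Among MSC lineage cells without any of 6 cycling markers the log2 ratio was 0.85 on the first day and -0.15 from 1 to 3 dpi. In that second step their levels were 19.7 and 17.8 CPM with overlapping intervals, and 18.4 and 22.3 CPM in thinned cells, so its direction is not settled. The summed level of 8 cycling genes in the whole class was 75.2, 82.1, 441 and 389 CPM.

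Across classes *Lmnb1* was highest in neutrophils, with 467, 707, 787 and 821 CPM, and granulocyte progenitors had 177 and 188 CPM at 1 and 3 dpi. Muscle cells had 99.2, 23.6, 181 and 133 CPM, with a first-day ratio of 0.238 (0.116 to 0.439) from 136 and 11 UMIs. B cells had 56.0, 99.4, 180 and 17.0 CPM. The T cell values were 32.9, 85.9, 139 and 116 CPM.

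*Glb1*, which encodes the lysosomal beta-galactosidase used as a stain for senescence, stayed within 2-fold at each step in MSC lineage cells. Its MSC levels were 24.9, 25.4, 33.4 and 29.7 CPM at the 4 times. At 7 dpi MSC lineage cells, monocytes and macrophages (27.2 CPM) and chondrocyte-like cells (26.5 CPM) were neighbours with overlapping intervals. The level in monocytes and macrophages was 16.4, 19.5, 27.3 and 27.2 CPM.

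The remaining genes of these pathways were read from lists in MSC lineage cells. Of 30 other p53 targets, 4 were past 2-fold higher and 2 lower on the first day, against 10.9% and 5.52% of all genes, with a median log2 ratio of 0.28 beside 0.18 for all genes. *Pmaip1* (1.26 to 4.24 CPM, ratio 3.37) and *Tnfrsf10b* (0.994 to 2.77 CPM, ratio 2.79), both proapoptotic, were among the higher. *Phlda3*, an inhibitor of Akt (73.4 to 29.9 CPM, ratio 0.407), and *Bbc3*, which encodes the proapoptotic Puma (15.0 to 6.46 CPM, ratio 0.432), were the lower ones. From 3 to 7 dpi 4 were higher, with *Bbc3* at a ratio of 2.86, *Phlda3* at 2.20 and *Eda2r* at 2.18, and 1 was lower, *Rrm2b*, a ribonucleotide reductase subunit, at 0.493, against 10.9% and 7.84% of all genes. From 1 to 3 dpi 5 were higher, with the mitotic genes *Psrc1* (4.48) and *Ckap2* (4.05) and the receptor gene *Epha2* (2.72) leading, and none was lower, against 7.68% and 5.75%. In monocytes and macrophages, a class added to this comparison after the values were seen, 10 of 25 tested targets were higher on the first day and 1 lower, against 17.2% and 5.70% of all genes. Their median log2 ratio was 0.73 beside 0.19 for all genes. *Phlda3* (ratio 6.61), *Apaf1* (2.68) and *Pmaip1* (2.63) were among the higher. Other lists shifted in the same cells and step. Of 8 tested integrated stress response genes 3 were higher and 1 lower, with a median log2 ratio of 0.91. The median was 0.81 for cycling genes, 0.65 for lysosomal hydrolases and 0.60 for lamins and nuclear envelope. It was 0.24 for p53 and its regulators, 0.19 for the RB pathway, 0.05 for secretory genes and -0.25 for immediate early genes.

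Of 15 genes of p53 and its regulators, 2 were higher in MSC lineage cells on the first day, the checkpoint kinase gene *Chek1* (ratio 5.62) and *Daxx* (2.13), against 10.9% of all genes, and none was past 2-fold in either later step. Of 20 RB pathway genes 5 were higher and 1 lower on the first day, against 10.9% and 5.52% of all genes. *Ccne2* (5.89), *Cdk6* (5.49) and *Ccne1* (3.96), which drive entry into S phase, were higher. *Cdkn1c*, the gene of the inhibitor p57, was lower on the first day (274 to 101 CPM, ratio 0.369) and higher from 3 to 7 dpi (83.2 to 251 CPM, ratio 3.02). The Polycomb gene *Cbx7*, a repressor of the INK4 locus, was at 0.359 of its level from 1 to 3 dpi and at 0.224 from 3 to 7 dpi. From 1 to 3 dpi 2 of the 20 genes were higher and 1 lower, against 7.68% and 5.75% of all genes. From 3 to 7 dpi 1 was higher and 1 lower, against 10.9% and 7.84%. *Cbx7* was the lower gene each time, so *Bmi1* and *Ezh2* of the same list were not past 2-fold lower. Its part in the course of *Cdkn2a* and *Cdkn2b* was not tested.

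Of 20 senescence-associated secretory genes 7 were higher and 4 lower on the first day, against 10.9% and 5.52% of all genes, and *Timp1* had a ratio of 7.49. Their median log2 ratio in that step was -0.08 beside 0.18 for all genes. From 1 to 3 dpi 5 were higher and none lower, against 7.68% and 5.75% of all genes. *Areg* (6.73), *Hgf* (3.31) and *Cxcl2* (2.15) were among the higher, and the median log2 ratio was 0.46 beside -0.06 for all genes. From 3 to 7 dpi 1 was higher, the collagenase gene *Mmp13* (7.15), and 6 were lower, among them *Plau* (0.200), *Il6* (0.234) and *Ccl2* (0.293), against 10.9% and 7.84% of all genes, with a median log2 ratio of -0.51 beside -0.07 for all genes. Of 8 lamin and nuclear envelope genes 2 were higher on the first day, *Lbr* (2.27) and *Lmnb2* (2.11), against 10.9% of all genes. None of 14 lysosomal hydrolase genes was past 2-fold at any step in MSC lineage cells, against 16.4%, 13.4% and 18.8% of all genes in either direction. Of 10 tested genes of the integrated stress response 1 was higher and 2 lower on the first day, against 10.9% and 5.52%. Of the lower ones, *Atf3* had a ratio of 0.309. The median log2 ratio of the 10 genes was 0.43 beside 0.18 for all genes. The 10 immediate early and dissociation genes, which respond to enzymatic digestion, summed to 25888, 17353, 9840 and 8663 CPM in MSC lineage cells, and their part in the course of *Cdkn1a*, *Gdf15* or *Atf3* was not tested.

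Within each library, cycling MSC lineage cells (at least 2 of *Mki67*, *Top2a*, *Cdk1*, *Birc5*, *Ccnb1* and *Ube2c*) were compared with cells that had none. There were 106, 147, 1043 and 2541 cycling cells and 8071, 3535, 4968 and 7536 others, and cycling cells were deeper, with medians of 15298.5 against 9052 UMIs in Uninjured muscle and 4134 against 2509.5 at 7 dpi. *Lmnb1* was higher in cycling cells of all 4 libraries, with 151, 131, 123 and 80.2 CPM against 10.9, 19.7, 17.8 and 15.5 CPM. The ratios were 13.8, 6.62, 6.89 and 5.17, against a background of 13.5%, 11.4%, 8.68% and 4% of genes past 2-fold higher. *Trp53inp1* was lower in all 4, with ratios of 0.261, 0.169, 0.245 and 0.504, against 14.4%, 16.9%, 14% and 5.32% of genes past 2-fold lower. *Mdm2* (0.643, 0.690, 0.893 and 0.948) and *Glb1* (0.722, 0.482, 0.758 and 0.832) were also under 1 in all 4. After thinning *Glb1* at 1 dpi was at 27.2 CPM in cycling cells against 22.4 CPM, with 4 UMIs in the cycling cells, too few to give a direction. *Ccng1* was between 1.08 and 1.20.

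The 3 cyclin-dependent kinase inhibitors did not keep 1 direction. *Cdkn1a* in cycling cells was at 228, 153, 79.9 and 69.9 CPM, against 92.7, 309, 197 and 77.4 CPM in the others. The ratio was thus 2.46 (2.22 to 2.72) in Uninjured muscle, 0.496 and 0.406 at 1 and 3 dpi and 0.903 at 7 dpi. *Cdkn2a* was higher in cycling cells before 7 dpi, at 8.63 (4.90 to 14.4, 18 UMIs), 2.11 (0.856 to 4.54) and 5.87 (3.79 to 9.36), and at 0.908 (0.816 to 1.01) at 7 dpi. At 1 dpi the thinned cycling cells held no *Cdkn2a* UMI. *Cdkn2b* had ratios of 0.651, 0.378, 1.63 and 1.03. At 3 dpi the cycling cells held 94 of the *Cdkn2a* UMIs and the larger group without cycling markers 27.

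**Figure D4:**
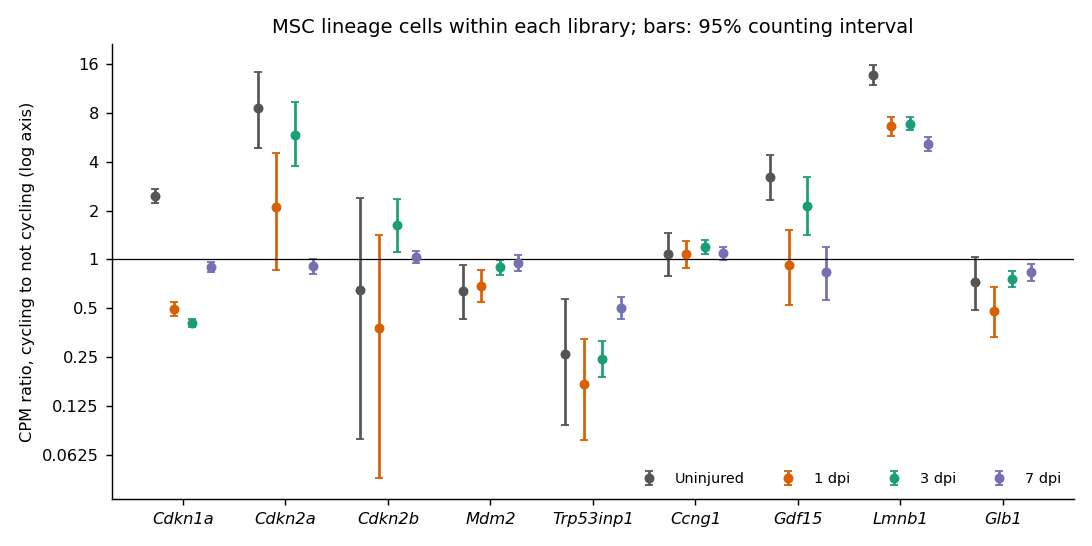
Points give the CPM ratio of cycling to other MSC lineage cells on a log axis for each of the 9 genes, with 1 colour per library and 95% counting intervals as bars. *Lmnb1* lies between 5.17 and 13.8 in all 4 libraries and *Trp53inp1* between 0.169 and 0.504, while *Cdkn1a* lies on both sides of 1.

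Differentiating muscle cells carried more *Cdkn1a*. Muscle cells with a UMI of *Myog*, the gene of myogenin, numbered 38, 86 and 55 in the Uninjured, 3 dpi and 7 dpi libraries. *Cdkn1a* was at 522 against 106 CPM, 703 against 272 CPM and 639 against 163 CPM in cells with and without *Myog*. The ratios were 4.92 (3.87 to 6.30), 2.58 (2.32 to 2.87) and 3.93 (3.05 to 5.12), while 11.7%, 3.35% and 8.81% of all genes were past 2-fold higher. *Trp53inp1* went the other way in the 3 libraries, with ratios of 0.444, 0.528 and 0.270, where 18.7%, 6.15% and 15.4% of all genes were past 2-fold lower. Cells with *Myog* were deeper, with 12797.5 against 6014 median UMIs in Uninjured muscle, and the thinned *Cdkn1a* ratios were 5.53, 3.04 and 3.78.

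Cartilage at 7 dpi separated the inhibitors. In MSC lineage and chondrocyte-like cells as 1 pool, *Cdkn1a* was at 63.4, 67.4, 81.9, 99.9, 155, 216 and 298 CPM in cells with 0 to 6 of the cartilage markers *Col2a1*, *Acan*, *Hapln1*, *Col9a1*, *Col11a2* and *Matn3*. Each value was above the one before, with overlapping intervals at 0 and 1 markers. *Cdkn2a* was at 16.4, 26.7, 50.2, 57.2, 59.7, 39.9 and 24.6 CPM, and *Cdkn2b* at 26.2, 43.9, 67.5, 71.4, 64.8, 36.9 and 23.9 CPM. Both were highest at intermediate numbers of markers, with overlapping intervals at 2 to 4 markers for each gene. The groups held between 1119 and 4406 cells and their median depth ran from 2012 to 4532 UMIs. In thinned cells *Cdkn1a* was 74.4 CPM at no marker and 265 CPM at 6, but it was lower at 3 markers (98.9 CPM) than at 2 (110 CPM). Thinned *Cdkn2a* was 19.5 and 18.9 CPM at these ends and 39.8, 39.1 and 37.2 CPM at 2, 3 and 4 markers. Thinned *Cdkn2b* was highest at 2 markers, at 56.6 CPM. This division by marker number was added after the class levels were seen.

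**Figure D5:**
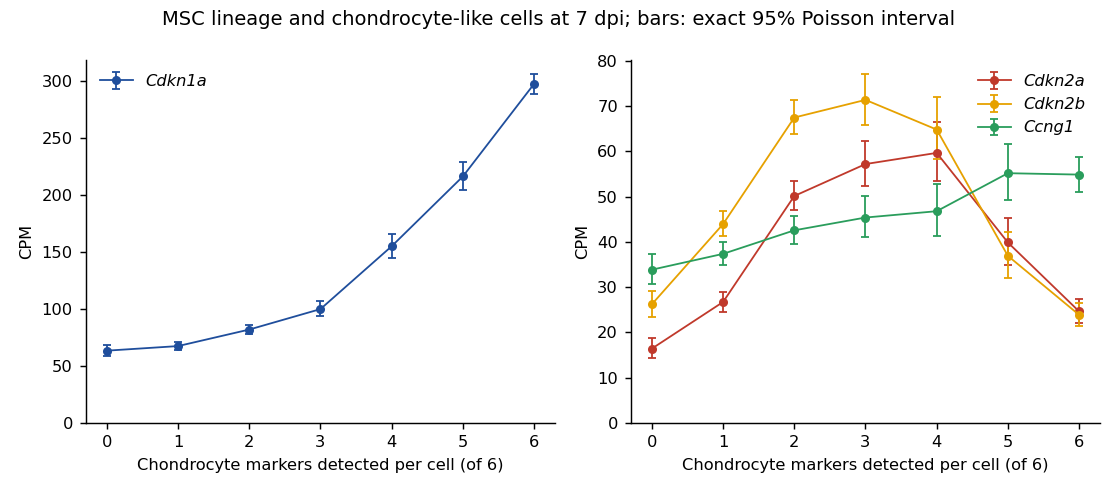
CPM of *Cdkn1a* (left) and of *Cdkn2a*, *Cdkn2b* and *Ccng1* (right) is drawn on linear axes against the number of cartilage markers detected per cell, from 0 to 6, for MSC lineage and chondrocyte-like cells at 7 dpi, with exact 95% Poisson intervals as bars. *Cdkn1a* climbs from 63.4 to 298 CPM, and *Cdkn2a* and *Cdkn2b* are highest at intermediate numbers of markers, where neighbouring intervals overlap.

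Chondrocyte-like cells as a class had *Cdkn1a* at 250 CPM (244 to 256), above the 75.6 CPM of MSC lineage cells in the same library. *Ccng1* was at 53.1 CPM, *Mdm2* at 35.7 CPM, *Trp53inp1* at 23.4 CPM, *Lmnb1* at 30.2 CPM and *Gdf15* at 2.86 CPM. Those with a UMI of *Col10a1*, the collagen gene of hypertrophic cartilage (1225 cells), were set against those without (3564 cells). *Cdkn1a* was at 356 and 214 CPM, a ratio of 1.66 (1.58 to 1.75). *Cdkn2a* (28.3 and 38.0 CPM, ratio 0.746) and *Cdkn2b* (24.7 and 39.2 CPM, ratio 0.632) were lower with *Col10a1*. None of the 9 genes was past 2-fold in this division, where the background was 2.16% of genes higher and 2.12% lower.

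Likeness of pattern was measured as Pearson r of log2(CPM + 1) over 45 groups of a class and a library, among 13143 genes. These groups share libraries, depth and free RNA, and r is a description. With log2(CPM + 10) instead, 6 likeness results moved and 3 did not, so the likeness depends in part on the added constant. The genes most like *Cdkn1a* were *Scarb2* (0.845), *Cyfip1* (0.820), *Fnip2*, *Cttnbp2nl* and *Ctnna1*. Those most like *Cdkn2a* were *Rhod* (0.847), *Spats2*, *Scx*, *Ccn4* and *H19*, and those most like *Cdkn2b* were *Mest* (0.817), *Msi1*, *Arhgef19*, *Mdk* and *Ccn4*. *Lmnb1* was most like *Kif23* (0.819), *Arhgap11a*, *Cks2*, *Capza1* and *Rgs19*. *Trp53inp1* was most like *Arid4b* (0.843), *Zfp292*, *Lmbr1l*, *Cdk13* and *Kdm5a*, and *Mdm2* like *Tbk1* (0.739), *Ythdf3*, *H2-T24*, *Osbpl8* and *Wsb1*. *Gdf15* was most like *Cbr2* (0.689), *Tnfrsf11a*, *Cebpa*, *Siglec1* and *Pparg*. *Glb1* was most like *Calr* (0.764), *Pdia3*, *Erp44*, *Ddost* and *Hsp90b1*, and *Ccng1* like *Arhgap1* (0.644), *Nmrk1*, *Klhl25*, *Mex3b* and *Podnl1*. Among the 9 genes themselves the highest r was 0.662, between *Cdkn2a* and *Cdkn2b*.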

How the data were processed

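Single-cell suspensions of tibial muscle were sequenced as 4 libraries, 1 per time point, from 3 pooled muscles each. The authors aligned reads with STAR in Cell Ranger 5.0.0 (mm10 per the submitters' processing notes) and deposited raw UMI counts per gene and cell. Their notes also name Seurat 3.1.1 and read down-sampling between samples. The order of that step and the deposit is not given in the sources used here. The values were whole numbers.

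Cells were kept with log10 UMIs and log10 genes within 2 SD of the library mean and at most 10% mitochondrial UMIs, and the 7.5% with the highest Scrublet score (scanpy 1.11.5) were removed per library, in place of the doublet caller of the study. A cell joined the class of which it had the most of 6 markers, with at least 2. A cell with at least 4 cartilage markers was chondrocyte-like whatever its MSC markers, if it had fewer markers of every other class. Summed counts gave CPM with exact Poisson intervals, shares had Clopper-Pearson intervals and ratios conditional binomial intervals, all at 95% and for counting error only. Shares and sums were repeated after thinning each cell to 1000 UMIs, without shallower cells (0, 36, 786 and 1398 of those kept, from Uninjured to 7 dpi). Software was Python 3.11.15, numpy 2.4.6, scipy 1.17.1, pandas 2.3.3, anndata 0.12.19, scikit-learn 1.9.0 and matplotlib 3.10.9, tested on simulated data.

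Named genes were the 9 genes, up to 3 genes per direction of each list with 100 or more UMIs on the higher side, and the 5 genes most alike in pattern, out of genes with at least 500 UMIs. The genes and lists were chosen with earlier results of these data known, so none of the patterns is independent support. Lists were read in MSC lineage cells, and in monocytes and macrophages for the first day.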

Additional observations from a re-analysis of the deposited data

Results flagged for a closer look

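Ratios between successive libraries are given here where 1 gene was past 2-fold in opposite directions in different classes, with at least 100 UMIs over both libraries and a counting interval clear of 1 in each class named. None of these differences between classes was tested, since each time was 1 library. Other opposite pairs, such as *Ccng1* and *Glb1* from Uninjured to 1 dpi and *Lmnb1* from 3 to 7 dpi, had fewer UMIs or an interval that included 1 in at least 1 of the classes. From Uninjured to 1 dpi the *Lmnb1* ratio was 2.03 in MSC lineage cells and 2.61 in T cells, and 0.238 in muscle cells. From 1 to 3 dpi the *Cdkn1a* ratio was 2.71 in muscle cells and 2.22 in T cells, and 0.493 in MSC lineage cells. From 3 to 7 dpi the *Cdkn2a* ratio was 15.1 in MSC lineage cells and 0.455 in muscle cells. In thinned cells *Lmnb1* in MSC lineage cells (13.4 and 22.6 CPM) and *Cdkn2a* in muscle cells (38.5 and 32.1 CPM) were within 2-fold in these steps. So was *Cdkn1a* in MSC lineage cells from 1 to 3 dpi, as given above. Each of the contrasts thus depends on depth on at least 1 side. The muscle class held 88 cells at 1 dpi, 287 at 3 dpi and 159 at 7 dpi, and 86 and 55 of them had a *Myog* UMI at 3 and 7 dpi. In Uninjured muscle 38 of 178 had one, and at 1 dpi no muscle cell did. The muscle ratios to or from 1 dpi thus set a mixed class against cells without *Myog*. Among muscle cells without a *Myog* UMI, *Lmnb1* was at 46.4 CPM in Uninjured muscle and 23.6 CPM at 1 dpi. The part of the *Myog* cells in the muscle ratios was not tested.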

How the results depend on the processing

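In MSC lineage cells from Uninjured to 1 dpi the count of the 9 genes past 2-fold was 2, and 1 when a class needed a lead of 2 markers, when cells had equal weight, with scaling by the median ratio, and without cycling cells. From 1 to 3 dpi it was 2, and 1 after thinning, with equal weight per cell, with scaling by the median ratio, and without cycling cells. From 3 to 7 dpi it was 2, and 4 without cycling cells, where the log2 ratio was -1.35 for *Cdkn1a* and 1.12 for *Gdf15*. In monocytes and macrophages from 3 to 7 dpi it was 3, with 1 after thinning and 5 when genes with at least 1 UMI were counted. *Cdkn2b* was higher in cycling cells of 2 libraries of 4, and of 1 when 3 cycling markers were needed, and *Glb1* of 0, and of 1 after thinning. The other p53 targets past 2-fold higher on the first day were 4, and 2 with at least 100 UMIs per gene, and those lower from 3 to 7 dpi were 1, and 0 with scaling by the median ratio. After thinning, 3 ratios of cycling to other MSC lineage cells past 2-fold changed direction: *Glb1* at 1 dpi (27.2 against 22.4 CPM), *Gdf15* in Uninjured muscle (0 against 7.31 CPM) and *Cdkn2a* at 1 dpi (0 against 3.12 CPM). The thinned cycling cells held 4, 0 and 0 UMIs of these genes, too few to give a direction. Between successive libraries the direction also changed in muscle cells for *Ccng1* on the first day (1.35, from 3 and 2 UMIs), *Cdkn2b* from 1 to 3 dpi (0, from 1 and 0 UMIs) and *Mdm2* from 3 to 7 dpi (1.15). It also changed for *Lmnb1* from 1 to 3 dpi in endothelial cells (1.25, from 2 and 4 UMIs) and *Glb1* in both steps to 3 dpi in neutrophils (0, 1 and 1 UMIs). The counts given here are likewise too few for a direction. Of the log2 ratios, 57 moved beyond their counting interval after thinning and 43 did not, 14 moved and 34 did not with equal weight per cell, and none of 48 moved when a class needed 3 markers. The causes were not tested. The alternative without cycling cells was chosen after seeing the data. With the gate of *Prrx1* and *Col1a1* UMIs and no *Ptprc* UMI, which takes in cartilage cells, MSC *Cdkn1a* at 7 dpi was 114 CPM. Under that gate 18 values moved and 18 did not. At 3 dpi it gave *Cdkn2a* at 5.36 CPM against 2.39 CPM, and *Cdkn2b* at 3.41 CPM against 2.72 CPM. At 7 dpi it gave 35.7 CPM against 36.0 CPM for *Cdkn2a*, and 47.2 CPM against 51.4 CPM for *Cdkn2b*. The step from 3 to 7 dpi in both genes was thus smaller under that gate. No paired analysis was possible because each group is 1 library. One library per time limits all statements on time to these libraries, and *Cdkn2a* and *Cdkn2b* before 7 dpi, as well as every gene in muscle cells at 1 dpi, rest on few UMIs.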
